A study of Mus musculus with 6 samples.

Results

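The genes described here are 10 regulators of cell cycle arrest, selected by name from the 45706 genes of the deposited table: the CDK inhibitors Cdkn1a, Cdkn1b, Cdkn1c, Cdkn2a and Cdkn2b, the p53 gene Trp53, the p53 target genes Mdm2 and Gdf15, and the cyclin D genes Ccnd1 and Ccnd2. Each Ensembl identifier matched 1 symbol, and all 10 genes were expressed enough to be tested. They were measured by RNA sequencing in primary fibroblasts grown out of the lungs of wildtype mice, in 3 control samples and in 3 samples kept for 24 hours with recombinant DKK1 of the mouse at 30 ng/ml. DKK1 (Dickkopf-1) is a secreted antagonist of Wnt signalling. The labels do not give strain, sex or age, how the cultured cells were purified, whether lungs were pooled, or whether the controls received a vehicle. They also do not say whether replicates came from separate mice or cultures, so the p-values measure the spread between these samples, which may be technical.

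Progression through the G1 phase is driven by D-type cyclins, which bind the kinases CDK4 and CDK6 and start the phosphorylation of the retinoblastoma protein. CDK inhibitors oppose this step: the INK4 proteins bind CDK4 and CDK6 directly, while the CIP/KIP proteins act on cyclin-CDK complexes more broadly. The transcription factor p53 activates Cdkn1a, Mdm2 and Gdf15 after DNA damage and other stresses, and Mdm2 protein returns p53 to a low level. In cultured fibroblasts several of these genes are followed as markers of arrest and senescence, and Ccnd1 is often used as a readout of beta-catenin activity.

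Upstream sequences are shown for the genes whose window held a match to the consensus p53 half-site, a motif of degenerate letters searched on both strands, and for Cdkn2a, whose count merges transcripts of different proteins. RefSeq promoter windows of build GRCm38.p6 (250 bases before to 50 after a start) were found for 7 of the 10 genes, in 10 windows; Cdkn1c, Ccnd1 and Ccnd2 had no match. The half-site was present in 3 of these 10 windows, those of Cdkn1a, Mdm2 and Trp53, and in 8.36% of all 32851 windows of 300 bases. A match is a description of letters and does not show binding. The genes were selected by name and include p53 targets, so their share of windows is no result of these samples. Sites outside the windows were not searched. The stretches below run 5′ to 3′ and leave out annotated exons; capitals mark the half-site matches. The first is chr17:29090729-29090975 (plus strand), upstream of the distal Cdkn1a start, the second chr10:117710759-117711008 (minus strand), upstream of Mdm2, and the third chr11:69580256-69580358 (plus strand), upstream of Trp53.
Cdkn1a: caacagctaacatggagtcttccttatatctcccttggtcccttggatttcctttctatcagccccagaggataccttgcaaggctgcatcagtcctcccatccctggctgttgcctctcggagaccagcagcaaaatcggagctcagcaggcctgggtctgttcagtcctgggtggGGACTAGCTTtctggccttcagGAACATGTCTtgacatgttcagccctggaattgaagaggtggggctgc
Mdm2: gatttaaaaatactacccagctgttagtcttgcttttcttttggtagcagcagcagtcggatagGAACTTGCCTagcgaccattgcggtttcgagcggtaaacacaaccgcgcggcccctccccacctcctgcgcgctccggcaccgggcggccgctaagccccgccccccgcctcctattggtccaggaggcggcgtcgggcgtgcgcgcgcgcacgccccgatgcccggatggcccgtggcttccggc
Trp53: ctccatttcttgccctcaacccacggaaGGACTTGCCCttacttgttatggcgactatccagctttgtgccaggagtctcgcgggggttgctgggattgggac
In the Cdkn1a stretch, GAACATGTCT begins 51 bases upstream of the distal start and 2841 bases upstream of the second annotated start. GGACTAGCTT begins 73 bases upstream of the distal start. The TCF/LEF motif CTTTGA, also searched on both strands and without overlap to the half-site matches, was in 0 of the 10 windows and in 16.0% of all windows.

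Cdkn2a has separate starts for the transcripts of p16Ink4a and p19Arf, which share exons but encode different proteins. The deposited row adds both, so a change in one cannot be told apart from a change in the other. The stretches upstream of both starts (minus strand) are chr4:89282193-89282442, inside the longer transcript's first intron, and chr4:89294654-89294869, ahead of that transcript's start; neither held a p53 half-site, so neither has capitals.
Cdkn2a inner start: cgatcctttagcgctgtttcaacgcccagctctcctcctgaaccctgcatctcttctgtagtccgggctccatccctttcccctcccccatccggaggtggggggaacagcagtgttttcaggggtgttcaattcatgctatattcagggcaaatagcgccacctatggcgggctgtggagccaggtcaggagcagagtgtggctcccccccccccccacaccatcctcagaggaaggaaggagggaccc
Cdkn2a outer start: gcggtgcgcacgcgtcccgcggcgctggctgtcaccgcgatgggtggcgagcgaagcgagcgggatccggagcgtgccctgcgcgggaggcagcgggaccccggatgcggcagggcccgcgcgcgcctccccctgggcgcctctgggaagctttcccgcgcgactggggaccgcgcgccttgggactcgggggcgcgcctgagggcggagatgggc

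Library totals were 22565917 to 28268124 counts in control and 23058359 to 34727102 in DKK1-treated samples, and the least abundant of the 10 genes, Cdkn1c, had at least 44 counts in every library. Mitochondrially encoded genes took 1.49% to 1.55% of counts in control and 1.63% to 1.70% in DKK1 libraries. The 8 fibroblast markers were all present, summing to 11935 to 13621 CPM (counts scaled by the library total) in control and 11257 to 12716 CPM with DKK1. The 5 smooth muscle markers, led by Acta2 and Tagln, summed to 8971 to 10031 CPM in control and 7676 to 8966 CPM with DKK1. Bulk counts do not show whether the fibroblasts or other cells expressed them. The 10 macrophage markers, led by Lyz2, summed to 432 to 850.1 CPM in control and 478 to 886 CPM with DKK1; none was under 3 counts everywhere. Replicate 3 of both groups stood apart: the 8 epithelial markers, led by Krt8, summed to 126 and 127 CPM there against 37.9 to 47.7 CPM in the other libraries, and the 6 endothelial markers to 64.4 and 63.0 CPM against 21.7 to 29.3 CPM. The 5 mesothelial markers summed to 53.5 and 55.3 CPM in replicate 3 against 23.3 to 27.7 CPM elsewhere, and the macrophage markers to 850.1 and 886 CPM against 432 to 518 CPM. In such bulk samples fewer cells of a type and less RNA per cell cannot be told apart.

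The control cultures expressed the 10 genes over a wide range, from Ccnd2 and Cdkn1a, the most abundant, down to Cdkn1c. Levels are compared between genes only per transcript length, as TPM (a length-scaled share of the library) from the mean length of a gene's annotated transcripts. In control libraries Ccnd2 stood at 505 ± 31.3 TPM and Cdkn1a at 455 ± 29.4 TPM (SD, n = 3 each), and their ranges touched. Mdm2 followed at 221 ± 11.3 TPM, Trp53 at 113 ± 4.03 TPM, Ccnd1 at 83.2 ± 12.8 TPM and Cdkn1b at 28.8 ± 1.66 TPM, each below the one before with no overlap of the 3 control libraries. Gdf15 (9.46 ± 1.22 TPM) and Cdkn2b (9.32 ± 0.19 TPM) overlapped. Cdkn2a, at 7.56 ± 0.75 TPM, lay below Cdkn2b without overlap but overlapped Gdf15, and Cdkn1c was the lowest at 1.86 ± 0.48 TPM. The order at the top depends on the length used: with the longest transcript, Ccnd2, whose longest transcript is 6330 bases against a mean of 1639, stood at 208 ± 13.3 TPM, below Cdkn1a at 507 ± 33.6 TPM and overlapping Mdm2 at 188 ± 9.86 TPM.

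**Figure D1:**
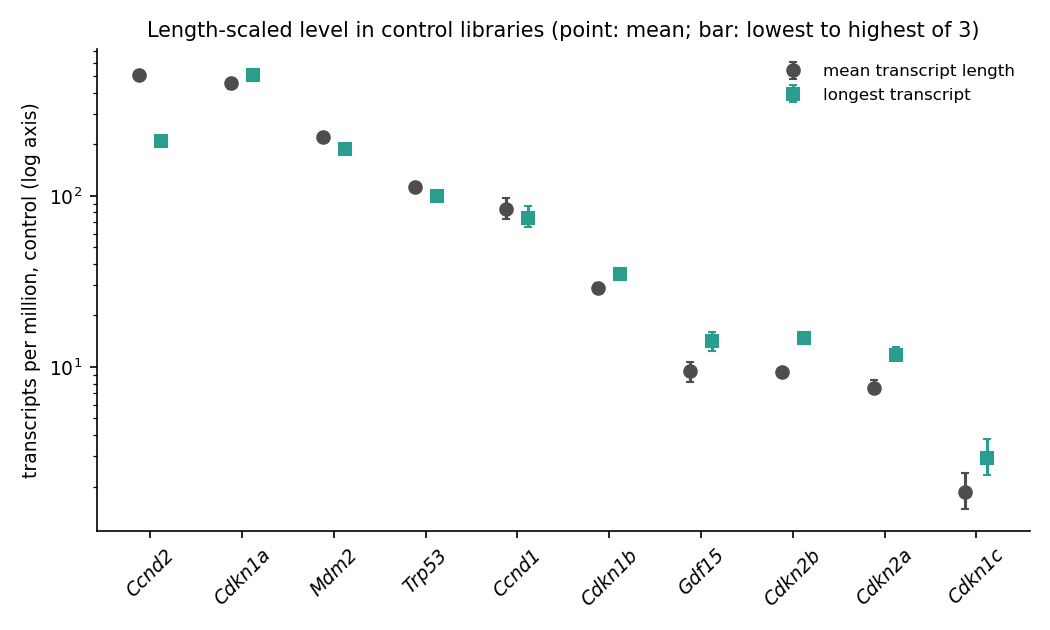
Length-scaled level (TPM, log axis) of the 10 genes in the 3 control libraries; points are means and bars run from the lowest to the highest library, with circles for the mean transcript length and squares for the longest transcript. Ccnd2 moves from 505 to 208 TPM with the length used, while Cdkn1a stays near the top and Cdkn1c is lowest with both.

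Fitted differences between DKK1 and control lay between -0.21 and 0.13 on the log2 scale. In the unpaired comparison 0 of the 10 genes were called, against 0.895% of the 14635 tested genes (edgeR quasi-likelihood test, Benjamini-Hochberg adjusted p under 0.05), and 1, Trp53, had an unadjusted p under 0.05 against 10.6% of tested genes. DESeq2 and limma-voom without pairing also called 0, each with 1 unadjusted p under 0.05. Same-numbered samples shared part of their deviations from the group means, though the labels do not state that these samples belong together. Fits with this number as a block are called paired here, and pairs are same-numbered samples. When the number entered the model as a block, 2 of the 10 were called, against 9.42% of tested genes: Trp53 higher, against 4.96% called higher, and Ccnd2 lower, against 4.46% called lower. In that fit 4 of the 10 had an unadjusted p under 0.05, against 20.7% of tested genes. Both changes were small, under 10% of the level. The median log2 fold change of the 10 genes was -0.01, against -0.00091 over all tested genes, with 5 above 0 and 5 below. In 6 of the 10 genes the 3 same-numbered pairs moved the same way, against 41.8% of tested genes: 3 were higher, against 22.2%, and 3 lower, against 19.6%.

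**Figure D2:**
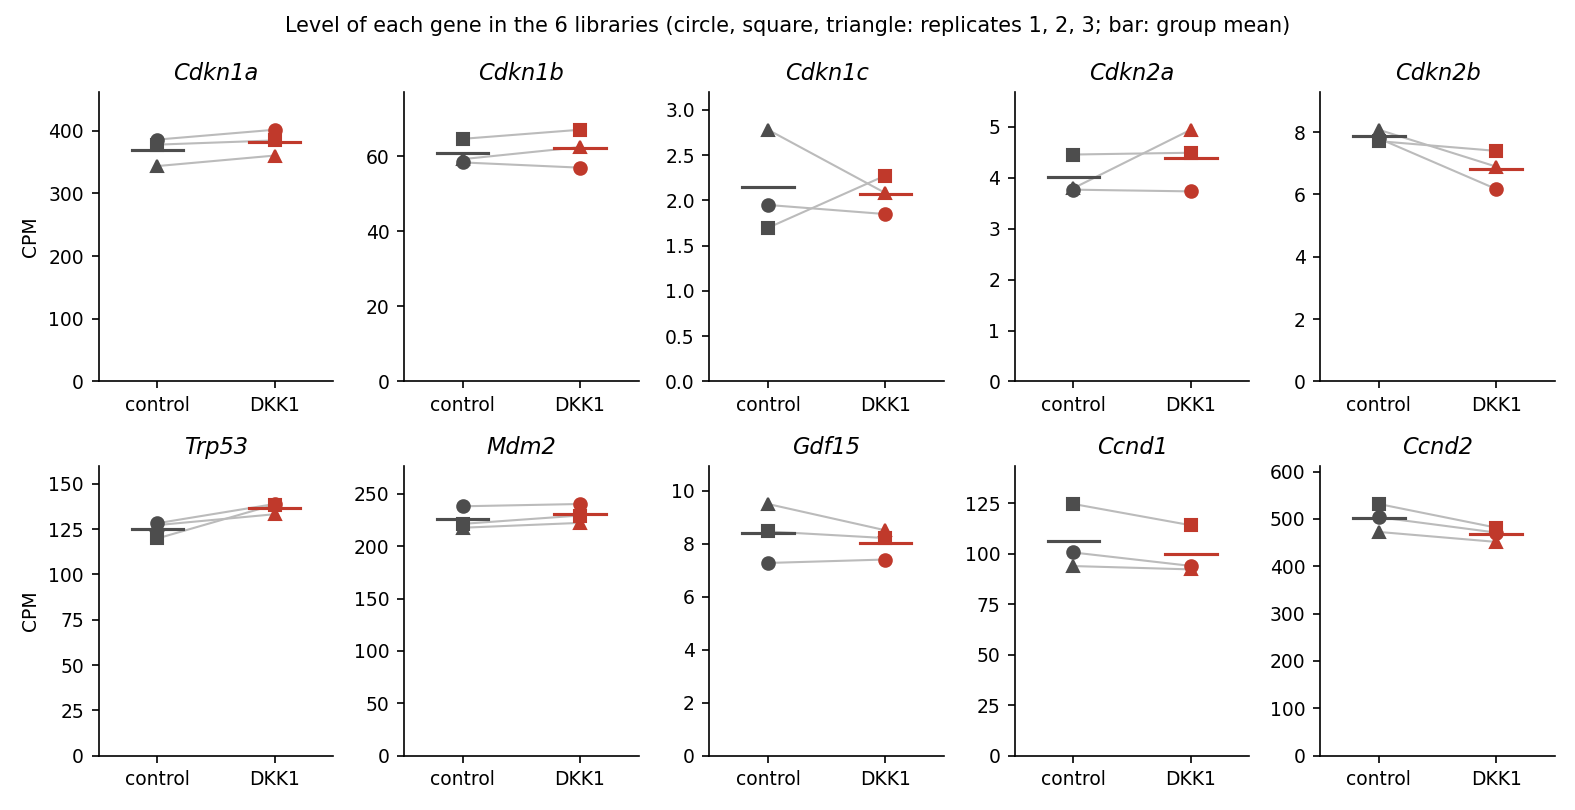
Level in CPM (linear axis from 0) of each of the 10 genes in the 6 libraries; lines join same-numbered samples and bars mark group means. The groups separate without overlap for Trp53 (higher with DKK1) and Cdkn2b (lower with DKK1), and for the other 8 genes the groups overlap.

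Among the CIP/KIP inhibitors, Cdkn1a (ENSMUSG00000023067, chr17:29090976-29100727) encodes p21, the inhibitor most closely tied to p53. It measured 386, 378 and 344 CPM in control replicates 1 to 3 and 402, 385 and 360.5 CPM in DKK1 replicates 1 to 3. The groups overlapped, replicate 3 was the lowest in both, and each DKK1 library lay above its same-numbered control. On the log2 scale the difference was 0.05 ± 0.06 (SE; adjusted p = 0.859 in edgeR), and the 95% interval of the fold ran from 0.943 to 1.13. With the block the interval ran from 1.00 to 1.06 (adjusted p = 0.23), so a change of p21 mRNA beyond 6.34% up lies outside it.

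Cdkn1b (ENSMUSG00000003031, chr6:134920401-134925513) encodes p27, which holds resting cells out of the cycle. Its libraries gave 58.4, 64.7 and 59.3 CPM in control and 57.0, 67.1 and 62.5 CPM with DKK1. Replicate 2 was the highest in both groups and the groups overlapped widely. The change came to 0.03 ± 0.07 on the log2 scale (SE; adjusted p = 0.947 in edgeR), with a 95% interval of the fold from 0.915 to 1.14.

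Cdkn1c (ENSMUSG00000037664, chr7:143458339-143461050) encodes p57, the product of an imprinted gene. It was scarce, at 1.95, 1.70 and 2.78 CPM in control and 1.85, 2.27 and 2.08 CPM with DKK1. The 3 pairs did not move together, and the control libraries had an SD of 26.4% of their mean. With 44 to 79 counts per library, the 95% interval of the fold was wide, from 0.678 to 1.38 (edgeR adjusted p = 0.977). Changes within these bounds are compatible with the data, and the bounds are not a limit of detection.

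Among the INK4 genes, Cdkn2a (ENSMUSG00000044303, chr4:89274471-89294653), the p16Ink4a and p19Arf gene whose upstream stretches are shown above, measured 3.77, 4.46 and 3.80 CPM in control and 3.73, 4.49 and 4.94 CPM with DKK1. The groups overlapped, and replicates 1 and 2 hardly differed within their pairs. As a log2 fold change this made 0.12 ± 0.15 (SE; adjusted p = 0.859 in edgeR; 95% interval of the fold 0.854 to 1.38). This value came from replicate 3: without that replicate in both groups it was -0.01.

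Cdkn2b (ENSMUSG00000073802, chr4:89306299-89311039), the neighbouring gene, encodes p15 and is known as a target of TGF-beta signalling. It measured 7.80, 7.71 and 8.08 CPM in control and 6.18, 7.40 and 6.90 CPM with DKK1. The DKK1 libraries all lay below the control libraries. Of the 10 genes, 2 showed no overlap between groups, against 16.5% of tested genes. Its log2 fold change had the largest size of the 10, -0.21 ± 0.10 (SE), but was not called in the unpaired edgeR test (adjusted p = 0.536) or in the paired one (-0.20 ± 0.10, adjusted p = 0.255). The 95% interval of the fold was 0.739 to 1.02.

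Trp53 (ENSMUSG00000059552, chr11:69580359-69591873), which encodes p53, was the gene of the set that rose in the paired comparison. It measured 128, 119.9 and 127 CPM in control replicates and 139, 139 and 133 CPM in DKK1 replicates. Every DKK1 library was above every control library. Unpaired, the log2 fold change of 0.13 ± 0.04 (SE) had an unadjusted p of 0.011 and an adjusted p of 0.26 in edgeR. Paired, it was 0.13 ± 0.03 with an adjusted p of 0.0158 in edgeR, a rise of 9.26% with a 95% interval from 4.44% to 14.3%. Differences on the log2 scale were 0.11, 0.21 and 0.07 in pairs 1, 2 and 3. The call was lost when pair 2 was left out (0.09, edgeR adjusted p = 0.265) and in DESeq2 with the block (0.12, adjusted p = 0.253), where 3.65% of tested genes were called. The smooth muscle marker sum and the mitochondrial share given above also differed between the groups without overlap. The same paired fit called 7 of the 8 fibroblast markers (2 higher, 5 lower), all 5 smooth muscle markers (lower) and 6 of the 10 macrophage markers (3 higher, 3 lower), against 9.42% of tested genes. The part of these differences in the paired calls of Trp53 and of the genes below was not tested.

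Mdm2 (ENSMUSG00000020184, chr10:117688875-117710758), which encodes the ubiquitin ligase that limits p53 protein, measured 238, 221 and 218 CPM in control and 240.2, 229 and 222 CPM with DKK1. Each pair was slightly higher with DKK1, while the groups overlapped. Its log2 fold change, 0.03 ± 0.05 (SE) unpaired and 0.03 ± 0.02 paired, was not called by edgeR (adjusted p = 0.909 and 0.552). The paired 95% interval of the fold, 0.986 to 1.05, is narrow.

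Gdf15 (ENSMUSG00000038508, chr8:70629393-70632456), a secreted stress cytokine of the TGF-beta superfamily, measured 7.27, 8.45 and 9.49 CPM in control and 7.40, 8.21 and 8.50 CPM with DKK1. Replicate 3 was the highest in both groups. DKK1 minus control came to -0.07 ± 0.12 on the log2 scale (SE; adjusted p = 0.897 in edgeR; 95% interval of the fold 0.792 to 1.14). Set side by side, the paired log2 fold changes were 0.13 for Trp53 and 0.04, 0.03 and -0.06 for its targets Cdkn1a, Mdm2 and Gdf15; the difference between Trp53 and its targets was not tested.

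Of the D cyclins, Ccnd2 (ENSMUSG00000000184, chr6:127125162-127152193), encoding cyclin D2, was lower with DKK1 in the paired comparison. It measured 504, 532 and 473 CPM in control and 471, 482 and 452 CPM with DKK1. The groups overlapped, since control replicate 3 lay below DKK1 replicate 2, but within each pair the DKK1 library was the lower one, by 0.10, 0.14 and 0.07 on the log2 scale. In edgeR the log2 fold change was -0.11 ± 0.05 (SE) unpaired, with an adjusted p of 0.517, and -0.11 ± 0.02 paired, with an adjusted p of 0.00471, a paired change of -7.17% with a 95% interval from -10.04% to -4.22%. DESeq2 with the block also called it (-0.11, adjusted p = 0.0108). Without pair 2 the call was lost (-0.08, edgeR adjusted p = 0.146). Genes annotated on the opposite strand, Gm43126 and 9330179D12Rik, held at most 57.4 counts, against at least 10412 for Ccnd2. The smooth muscle marker sum was also lower with DKK1, from 8971 to 10031 CPM in control to 7676 to 8966 CPM. So was the fibroblast marker sum within each pair, at 12948, 13621 and 11935 CPM in control and 12250, 12716 and 11257 CPM with DKK1. That sum is led by Col1a1 and Col1a2, and the 8 markers went both ways, with 3 above 0 and 5 below, up to 0.62 for Dcn, around a median paired log2 fold change of -0.11. The part of either in the Ccnd2 result was not tested.

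Ccnd1 (ENSMUSG00000070348, chr7:144929931-144939925), encoding cyclin D1, measured 101, 125 and 93.9 CPM in control and 93.9, 114 and 92.2 CPM with DKK1. Replicate 2 was the highest in both groups, and each DKK1 library lay below its control. Unpaired, edgeR gave a log2 fold change of -0.09 ± 0.12 (SE) and an adjusted p of 0.859. Paired, it gave -0.09 ± 0.03 and an adjusted p of 0.0779, so Ccnd1 was not called in either. Leaving out pair 3 brought it past the threshold in the paired fit (-0.12, adjusted p = 0.0447), and leaving out control replicate 2 turned its unpaired sign to 0.04. RSEM gave it fractional counts in all 6 libraries, and LTO1 overlaps it on the opposite strand with 303 to 530 counts, so its value is uncertain. Ccnd2 too had fractional counts, in 4 of the 6 libraries, as did Mdm2 in control replicate 2 (6254.06). On the opposite strand AC167363.2 overlaps Cdkn1a and Gm44732 overlaps Cdkn1c, and their counts are not given here.

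The D cyclin genes kept their order in the summed level in both groups. Per mean transcript length, Ccnd2 gave 59.3% ± 0.69 of the summed Ccnd1, Ccnd2 and Ccnd3 level in control and 58.5% ± 0.21 with DKK1 (SD, n = 3 each). Ccnd3, the third D cyclin gene, gave 31.0% ± 1.75 and 31.8% ± 1.18, and Ccnd1 9.74% ± 1.06 and 9.71% ± 0.96. With the longest transcripts these shares were 50.6%, 31.3% and 18.1% in control for Ccnd2, Ccnd3 and Ccnd1, and 49.9%, 32.1% and 18.0% with DKK1. With both lengths every DKK1 library had a lower Ccnd2 share than every control library. Per mean length these shares were 58.28% to 58.69% with DKK1 and 58.80% to 60.07% in control. The difference in shares was not tested. Replicate 2 had the largest Ccnd1 share in both groups.

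**Figure D3:**
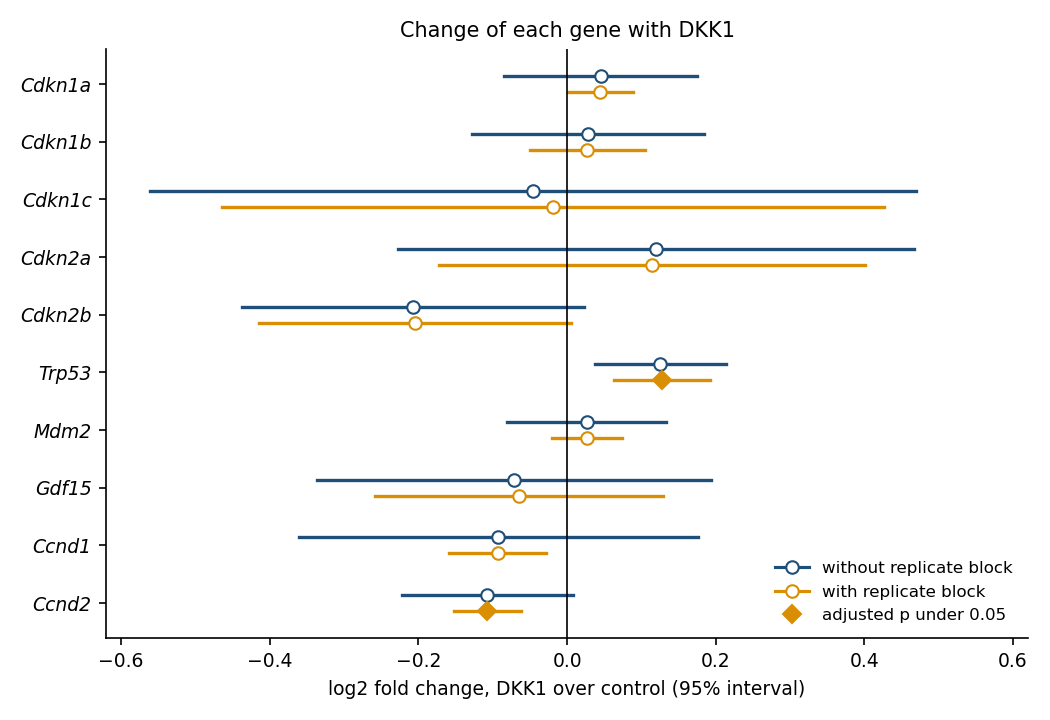
Log2 fold change of DKK1 over control for the 10 genes with 95% intervals, without (blue) and with (orange) the replicate block; filled diamonds mark an adjusted p under 0.05. Trp53 at 0.13 and Ccnd2 at -0.11 pass the threshold in the paired fit, and the low-count genes Cdkn1c and Cdkn2a have the widest intervals.

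Of 6 close partners of these genes, 0 were called unpaired, against 0.895% of tested genes, and 1, Cdk6, was called in the paired fit, against 9.42%. Cdk6, a kinase partner of the D cyclins, measured 95.7, 85.9 and 80.4 CPM in control and 86.1, 75.0 and 71.9 CPM with DKK1. It fell in the paired edgeR fit by 0.18 ± 0.03 on the log2 scale (SE; adjusted p = 0.00196) and was not called in the unpaired one (-0.17 ± 0.08, adjusted p = 0.527). The paired call was lost without pair 2 (-0.16, adjusted p = 0.0617) and in DESeq2 with the block (adjusted p = 0.0724). Unpaired log2 fold changes were 0.06 for the other kinase partner, Cdk4, and -0.05 for Ccnd3. For the INK4 genes Cdkn2c (p18) and Cdkn2d (p19Ink4d) they were -0.10 and -0.07, and for Mdm4, the partner of Mdm2, 0.06. The adjusted p-values of these 5 in edgeR were 0.65, 0.756, 0.754, 0.764 and 0.773. The paired fit called none of these 5. Genes annotated on the opposite strand overlap Cdk4, Cdk6, Ccnd3 and Mdm4.

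Among 30 other p53 target genes the unpaired edgeR test called 0, against 0.895% of tested genes. In that test 4 had an unadjusted p under 0.05, against 10.6%. The paired test called 4, against 9.42%, with 2 higher and 2 lower, against 4.96% and 4.46%. In the paired test 8 had an unadjusted p under 0.05, against 20.7%. The median log2 fold change was 0.01, with 17 above 0 and 13 below. Btg2, an anti-proliferative gene that is also an immediate early gene, measured 125, 120.1 and 104 CPM in control and 138, 151 and 129 CPM with DKK1. It rose in the paired edgeR fit by 0.26 ± 0.03 on the log2 scale (SE; adjusted p = 0.000253), as did Plk2, a polo-like kinase (0.15 ± 0.02, adjusted p = 0.000394). Phlda3, an inhibitor of AKT, fell (-0.10, adjusted p = 0.0105), and so did the epoxide hydrolase gene Ephx1 (-0.11, adjusted p = 0.0357). DESeq2 with the block called Btg2 and Plk2 but not Phlda3 (adjusted p = 0.113) or Ephx1 (adjusted p = 0.47). In edgeR the paired call of Phlda3 was lost without pair 1 (adjusted p = 0.051) or pair 2 (adjusted p = 0.0671), and that of Ephx1 without any 1 of the pairs (adjusted p = 0.204, 0.0865 and 0.109). The p53 targets Bax, Ccng1, Sesn1 and Zmat3 had unpaired log2 fold changes of -0.03, 0.07, -0.05 and 0.01 and were called in neither fit; leaving out pair 1 brought Ccng1 past the threshold in the paired edgeR fit (0.08, adjusted p = 0.0193). Of 12 regulators of p53, 0 were called by edgeR without or with the block, against 0.895% and 9.42% of tested genes. In each fit 1 had an unadjusted p under 0.05, against 10.6% without and 20.7% with the block. Their median log2 fold change was 0.02.

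Of 24 other G1 phase genes, the unpaired edgeR test called 0, against 0.895% of all tested genes. It gave 0 unadjusted p under 0.05, against 10.6%. The paired test called 1, Cdk6, against 9.42% of all tested genes. The paired unadjusted p was under 0.05 in 8 of the 24, against 20.7% of all tested genes. Of 26 proliferation genes, 0 were called in the unpaired edgeR test, against 0.895% of tested genes. In that test 1 had an unadjusted p under 0.05, against 10.6%. With the block 6 had an unadjusted p under 0.05, against 20.7% of tested genes, and 1 was called, against 9.42%: Rrm2, a subunit of ribonucleotide reductase, which rose by 0.09 ± 0.02 on the log2 scale (SE; adjusted p = 0.018). The Rrm2 call was lost without pair 1, 2 or 3 (adjusted p = 0.0592, 0.135 and 0.0502 in edgeR), in DESeq2 with the block (adjusted p = 0.322), and in the paired edgeR fit corrected for GC content and length (adjusted p = 0.0986). The proliferation list had a median log2 fold change of 0.03, with 19 above 0 (73.1%, against 49.6% of all tested genes) and 7 below. This count was not repeated with the correction for GC content and length. The cycling-cell marker Mki67 measured 458, 492 and 464 CPM in control and 448, 479 and 431 CPM with DKK1 (-0.06 on the log2 scale, adjusted p = 0.731 in edgeR). It was not called in the paired fit, except without pair 1 (-0.08, adjusted p = 0.0297 in edgeR). Ccna2, cyclin A2, differed by 0.01 (adjusted p = 0.985).

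Several secreted factors of a senescence-associated list rose with DKK1. Among its 18 genes the unpaired edgeR test called 6, all higher, against 0.697% of tested genes called higher, and the paired one 11, all higher, against 4.96%; the median log2 fold change was 0.17. The list mixes secreted inflammatory factors with nuclear and lysosomal markers, and its cytokines were already known to rise in these samples, so it is not independent evidence of a direction. The 11 include Hmgb1 and Hmgb2 (named after their values were seen), chromatin proteins whose loss from the nucleus or from expression is used as a senescence marker. In the paired edgeR fit the log2 fold change was 0.09 ± 0.02 (SE; adjusted p = 0.0149) for Hmgb1 and 0.13 ± 0.03 (SE; adjusted p = 0.0186) for Hmgb2. Both calls were lost in DESeq2 with the block (adjusted p = 0.127 and 0.351), after correction for GC content and length (adjusted p = 0.0988 and 0.217) and without pair 2 (adjusted p = 0.069 and 0.0883). That of Hmgb1 was also lost without pair 3 (adjusted p = 0.0713) and that of Hmgb2 without pair 1 (adjusted p = 0.112 in edgeR). Mmp3, the matrix protease stromelysin-1, measured 19.9, 17.1 and 15.3 CPM in control and 47.3, 37.2 and 34.3 CPM with DKK1, with no overlap. It rose by 1.18 ± 0.13 on the log2 scale (SE; adjusted p = 0.00742 in edgeR), from fractional counts in all 6 libraries. The cytokine gene Il6 and the chemokine genes Cxcl1 and Ccl2 rose by 1.37, 1.82 and 1.27 on the log2 scale (adjusted p = 0.00154, 0.0076 and 0.0236 in edgeR). The unpaired call was lost for Mmp3 without control replicate 2 (adjusted p = 0.0538), for Cxcl1 without DKK1 replicate 1 (adjusted p = 0.0502) and for Ccl2 without control replicate 2 or 3 (adjusted p = 0.118 and 0.063) or replicate 3 of both groups (adjusted p = 0.0615); the paired edgeR fit called all 4, also without any 1 pair. Side by side with these, the log2 fold changes of the senescence-linked inhibitors Cdkn1a, Cdkn2a and Cdkn2b were 0.05, 0.12 and -0.21, and none of the 3 was called. The macrophage marker Cd14, a lipopolysaccharide co-receptor gene named here after its values were seen, was also called higher unpaired, at 9.31, 9.09 and 9.54 CPM in control and 17.8, 15.5 and 17.3 CPM with DKK1 (0.85 ± 0.08 on the log2 scale, SE; adjusted p = 0.0028 in edgeR); its part in the list's change was not tested. The macrophage list did not move one way: 4 of its 10 markers were above 0 and 6 below, from -1.61 to 1.07 with a median of -0.17. The paired fit called 3 higher and 3 lower, against 4.96% and 4.46% of tested genes. The sum of the 10, led by Lyz2, was higher with DKK1 in each same-numbered pair. It was 432, 499 and 850.1 CPM in control and 478, 518 and 886 CPM with DKK1.

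**Figure D4:**
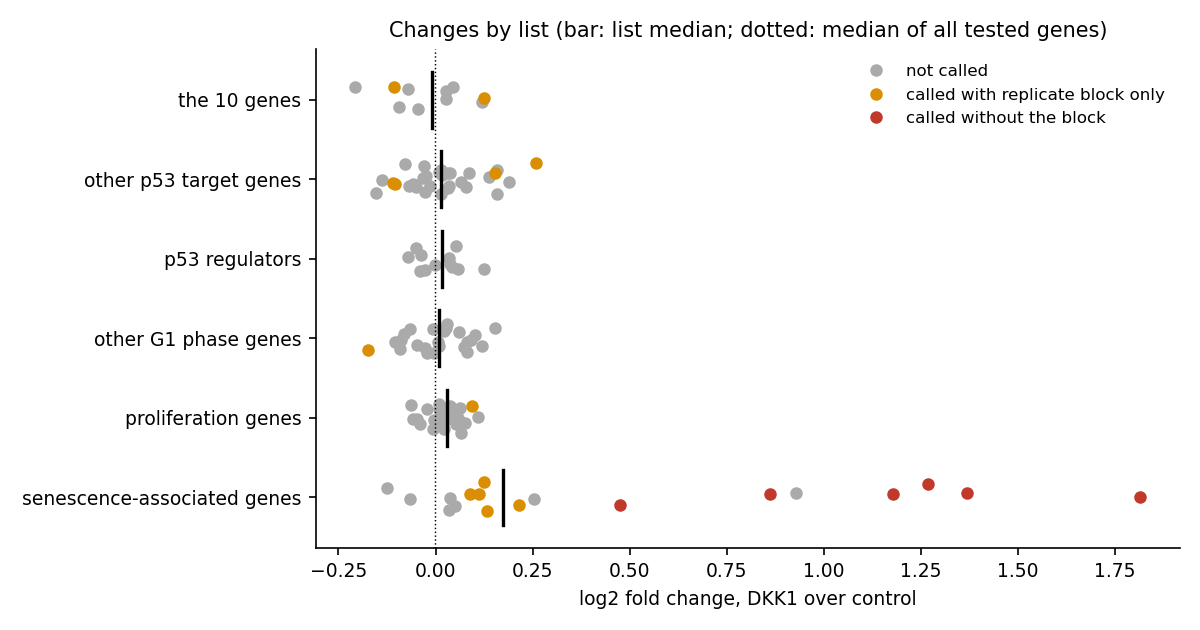
Unpaired log2 fold changes of the genes of each list, 1 point per gene, with the list median as a bar and the median of all tested genes as a dotted line; red points were called without the block and orange points only with it. The 10 genes lie between -0.21 and 0.13, while the senescence-associated list reaches 1.82.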

How the data were processed

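RNA was sequenced from 3 control and 3 DKK1-treated samples of mouse lung fibroblasts. The values are expected counts per gene from RSEM, which divides ambiguous reads among genes, as the name of the deposited table states. The submitters' processing notes name STAR, RSEM, edgeR 4.2.1 and GRCm38/mm10; the annotation release and strandedness are not given in the sources used here. Of the gene identifiers 98.8% matched a symbol, and 98.7% of the transcript identifiers are in GENCODE M21 (GRCm38), the source of coordinates, lengths and overlaps.

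Expected counts were rounded, filtered with filterByExpr (minimum count 10), scaled with TMM and tested with edgeR 4.0.16 in R 4.3.3 (quasi-likelihood, two-sided, group as the only term), with Benjamini-Hochberg adjustment over all 14635 tested genes and a call at 0.05. The test was checked on simulated data. Standard errors are the log2 fold change over the square root of F, and 95% intervals use the fitted degrees of freedom. CPM used whole library totals. A floor of 3 counts is 0.0864 to 0.133 CPM; it covers counting error only, since PCR reads without molecular identifiers are not independent molecules. Replicate numbers come from the sample titles. Deviations of same-numbered samples correlated across genes at 0.24, 0.19 and 0.36, so a fit with the number as a block is given where it changes a call. Alternatives also used DESeq2 1.42.0 and limma-voom 3.58.1. The genes named beyond the 10 were Ccnd3, Cdk4, Cdk6, Cdkn2c, Cdkn2d and Mdm4, preset p53 and cycle markers, and the called list genes with the largest changes, up to 4 per list and direction; Hmgb1, Hmgb2 and Cd14 were named outside this rule, after their values were seen. Genes and lists were chosen with earlier results of these data known.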

Additional observations from a re-analysis of the deposited data

How the results depend on the processing

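The 131 unpaired calls (102 higher, 29 lower) stayed within 1.5 times, at 126 to 135, with DESeq2 size factors, library totals, a floor of 10 counts in all samples, unrounded counts, limma-voom, or correction for GC content and length. There were 289 with DESeq2, 329 without a low-count filter, 551 with DESeq2 and the replicate block, 1379 with the replicate block and 1392 with the block plus GC and length correction; the cause was not tested. Leaving out 1 sample gave 36 to 139 calls: 51 and 36 without control replicates 1 and 2, 44 and 57 without DKK1 replicates 1 and 2, 107 and 139 without replicate 3 of either group; leaving out both gave 149. The blocked fit gave 1312, 612 and 1059 calls without pairs 1, 2 and 3. These pair removals and the GC and length correction were chosen after seeing the data.

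Over 21 alternatives for each of the 10 genes (210 values), 185 kept direction and side of the threshold, 10 passed it and 15 changed sign, each in a gene not called. The sign of the value held for Cdkn2b, Trp53 and Ccnd2 in all 21, but its size moved. The log2 fold change ran from -0.287 to -0.14 for Cdkn2b, 0.0875 to 0.157 for Trp53 and -0.157 to -0.0631 for Ccnd2. Leaving out samples moved the log2 fold changes of Cdkn1a from -0.0104 to 0.0881, Cdkn1b from -0.0368 to 0.0863, Cdkn1c from -0.193 to 0.182, Cdkn2a from -0.00741 to 0.223, Mdm2 from -0.00566 to 0.067, Gdf15 from -0.162 to 0.0142 and Ccnd1 from -0.204 to 0.0415. For other named genes the ranges were Bax from -0.0587 to 0.00933, Ccna2 from -0.053 to 0.0512, Ephx1 from -0.257 to 0.00267 and Zmat3 from -0.0251 to 0.0338. With 1 sample left out, Cdk4 ran from 0.0242 to 0.0807, Ccnd3 from -0.0751 to -0.0183 and Cdk6 from -0.255 to -0.104. Cdkn2c ran from -0.188 to -0.0376, Cdkn2d from -0.118 to -0.0367 and Mdm4 from 0.00308 to 0.102. The blocked fit changed sign without pair 1 for Cdkn1c (0.00841), without pair 2 for Ccna2 (-0.00637) and Sesn1 (0.00616), and without pair 3 for Cdkn1c (0.183), Cdkn2a (-0.00593), Bax (0.00356) and Zmat3 (-0.00958). Correction for GC content and length turned Ccna2 to -0.0165 and Ccng1 to -0.00838, and with the replicate block Ccna2 to -0.0163, Ccng1 to -0.00829 and Cdkn1c to 0.000324; the cause was not tested. Counts were fewest for Cdkn1c and Cdkn2a. Beyond the calls given with their genes above, the replicate block over all 3 pairs changed no call of a named gene.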
